A study of Homo sapiens with 16 samples.

Results

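Ribosome biogenesis begins in the nucleolus. There, RNA polymerase I transcribes the precursor of the large ribosomal RNAs, small nucleolar ribonucleoproteins (snoRNPs) guide its chemical modification, and assembly factors cut, fold and pack it into the small and the large ribosomal subunit. The transcription factor MYC is known to drive many of these genes in growing cells. The gene set described here is a fixed list of 40 such genes, and the question put to it was how their timing compares with that of MYC. Of the 40 genes, 39 were matched to the transcripts used here and all 39 passed the filter on low counts, among 17559 genes tested and 35052 matched in all. RRN3 is not analysed here.

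The cells were K562, an established human leukaemia line, labelled wild type. All were treated with 25 nM PMA (phorbol 12-myristate 13-acetate), which takes K562 towards a megakaryocyte-like state, and RNA was taken at 0 h, after 0.5 h, 1.5 h and 3 h, then at 6 h, and daily from 24 h through 48 h until 72 h, with 2 libraries per time point and 16 in all. Values listed below in order follow these 8 times. The medium was changed after 24 h and 48 h, per the labels, and no untreated culture was followed over the same hours, so time in culture and time in PMA cannot be told apart. The labels do not say whether the libraries of a time point came from separate cultures, so p-values measure only the spread between these libraries.

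The sequenced RNA was total RNA without its ribosomal RNA, and each library held between 27285773 and 54056289 estimated reads, and members had between 339 and 66985 reads in a library. Among markers of K562, GATA1, TAL1, HBG1 and HBG2 were present, and KLF1 went from a mean of 52.6 to 2.87 CPM (edgeR's counts scaled for library size, with TMM factors) between 0 h and 72 h. Among markers of other cells, MS4A1, CD3E and CD14 stayed at or under 0.587 CPM. EPCAM lay between 16.6 and 83.2 CPM, PECAM1 between 15.7 and 48.5 CPM, and COL1A1 went from a mean of 3.46 CPM at 0 h to 242 CPM at 48 h. The part of these genes in the results was not tested. The second 0 h library had the shortest mean fragment length, read from the gap between transcript length and effective length. It was 199 nt, against 229 to 248 nt in the other replicate 2 libraries and 210 to 221 nt in replicate 1. Across genes, log2 CPM of replicate 1 minus replicate 2 correlated with GC content at r = -0.74 at 0 h. At the other times this r lay between -0.57 and 0.38. Counts of members called against 0 h are therefore also given without the second 0 h library. In bulk samples, fewer cells that express a gene and less RNA per cell cannot be told apart.

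Promoters of 33 members were in a RefSeq table (GRCh38.p14) of 250 bases before to 50 bases after each gene start. Of 6 motifs searched on both strands, CACGTG, the E-box that MYC with its partner MAX is known to bind, was present in 16 of the 33 (48.5%), against 8.77% of 27305 genes with a promoter in the table and 11.9% of the tested genes among them. In all 16 a match began within 50 bases of the gene start, as it did in 4.94% of the tested genes and 24.7% of other processing genes. CACGCG was present in 30.3% of members and 20.7% of tested genes, CCGGAAG in 36.4% and 20.0%, GGAAGT in 39.4% and 32.0%, CATGTG in 3.03% and 10.6%, and TGACGTCA in 0% and 3.54%. CACGTG was followed up with these shares in view. The same motif was present in 27 of 81 (33.3%) other processing genes and 4 of 63 (6.35%) ribosomal protein genes. These matches are letters in a window, not measured binding.

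Stretches with the motif in capitals are shown for members whose RNA later went in opposite directions, chosen after their values were seen. They are written 5′ to 3′ on the strand of the gene. UTP20 is shown with 100 bases upstream of its start (chr12:101280005-101280104, plus strand), and the others with 30 bases around the motif: NAT10 (chr11:34105602-34105631, plus), FBL (chr19:39846356-39846385, minus), RCL1 (chr9:4792936-4792965, plus), NOP2 (chr12:6568242-6568271, minus) and NOP10 (chr15:34343130-34343159, minus).
UTP20: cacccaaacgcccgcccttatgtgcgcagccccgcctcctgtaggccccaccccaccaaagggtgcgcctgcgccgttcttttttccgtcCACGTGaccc
NAT10: aatgcgcttgcgCACGTGctgtctaccagt
FBL: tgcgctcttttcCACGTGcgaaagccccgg
RCL1: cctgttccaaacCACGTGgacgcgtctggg
NOP2: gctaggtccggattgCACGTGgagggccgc
NOP10: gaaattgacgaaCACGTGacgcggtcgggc

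MYC RNA fell early, came back and fell again. In the replicate 1 libraries it stood, in order of time, at 136, 132, 63.9, 126, 103, 94.4, 65.8 and 49.7 CPM, and in the replicate 2 libraries at 161, 148, 76.4, 111, 117, 128, 93.1 and 64.9 CPM. Both 1.5 h libraries lay below every library of 0, 0.5, 3, 6 and 24 h, and the 72 h libraries did so too. Against 0 h the log2 fold change was -1.08 (SE 0.19, edgeR quasi-likelihood test with Benjamini-Hochberg adjustment over all genes, adjusted p = 0.0021) at 1.5 h and -1.37 (SE 0.19, adjusted p = 2.9e-05) at 72 h. From 1.5 h to 3 h MYC rose by 0.76 (SE 0.19, edgeR adjusted p = 0.0086). At 3, 6 and 24 h its changes of -0.32, -0.43 and -0.42 against 0 h were not called. With libraries scaled to total counts they were -0.61, -0.80 and -0.67 and called.

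The members did not share 1 course. At 6 h, 11 of 39 were lower than at 0 h and 14 were higher, and at 72 h 25 were lower and 4 higher (edgeR, adjusted p under 0.05, the rule for every call against 0 h). Over the course, 38 of 39 changed at some time by the F-test over all time points, which called 82.9% of all tested genes. Of the 39, 15 were called lower only, 12 higher only, 11 in both directions at different times, and RRP9, a protein of the U3 snoRNP, in neither. How all tested genes divide in this way was not computed.

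**Figure D1:**
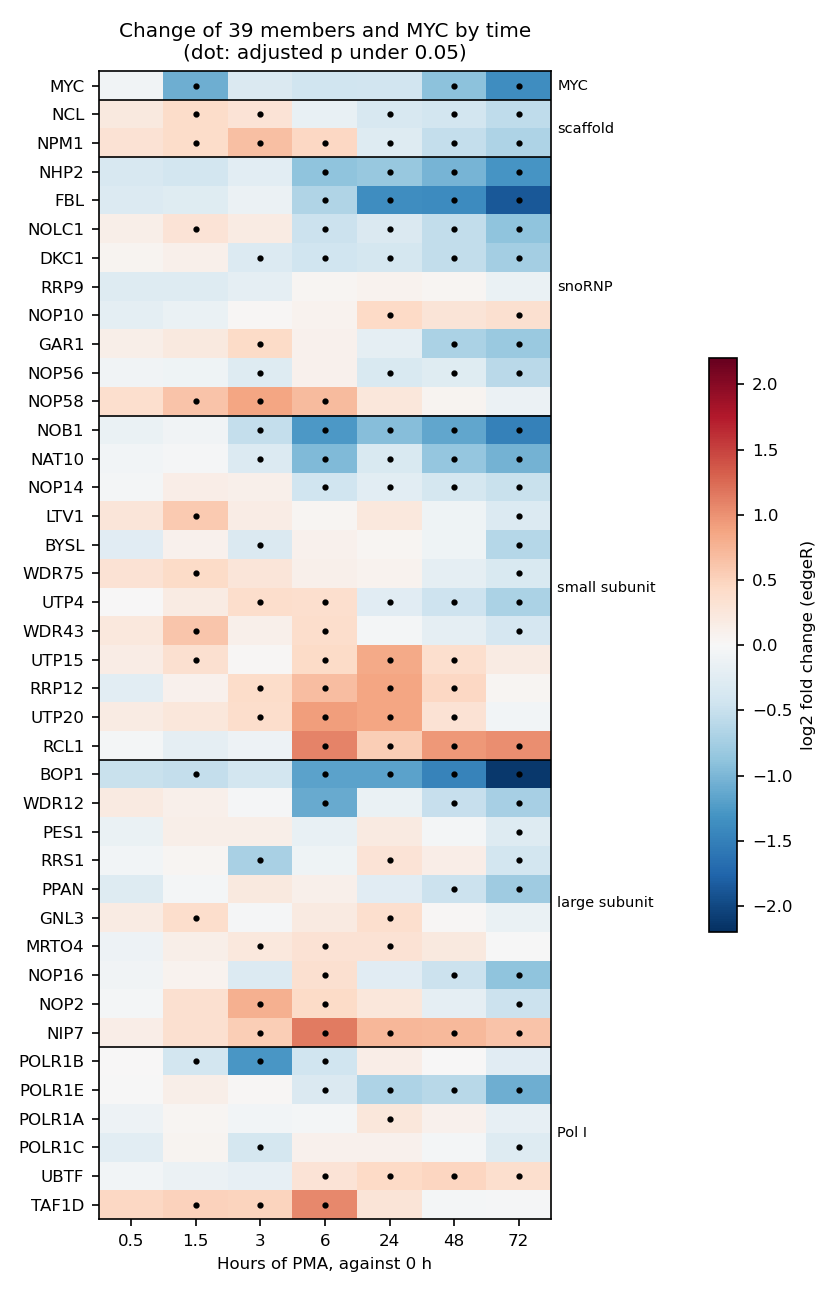
Log2 fold change (edgeR) of MYC and the 39 members at 7 times of PMA against 0 h, grouped by role and ordered by the value at 6 h; a dot marks an adjusted p under 0.05. At 6 h the colours are mixed, with 11 members called lower and 14 higher (29.4% and 27.8% of all genes). At 72 h 25 are called lower (26.9% of all genes).

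By time, with TMM scaling, more members were called higher than lower at 1.5, 3 and 6 h. From 24 h on, more were called lower than higher. After 0.5 h no member was called, against 0.171% of all genes (30 genes; 3907 had an unadjusted p under 0.05). The 1.5 h libraries had 2 members lower and 10 higher, where 8.05% of all genes were lower and 9.05% higher. At 3 h, 8 members were lower and 11 higher (20.5% and 28.2%), against 20.5% and 21.5% of all genes. The 11 lower and 14 higher of the 6 h libraries stood against 29.4% and 27.8% of all genes, shares near those of the members. After a day, 13 members were lower and 11 higher (33.3% and 28.2%), against 26.6% and 31.7% of all genes. The 48 h libraries had 17 lower and 6 higher (43.6% and 15.4%), against 24.1% and 30.2% of all genes. The 25 lower and 4 higher at 72 h are 64.1% and 10.3% of members, against 26.9% and 31.7% of all genes.

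The median log2 fold change of the members from the earliest to the latest time was -0.05, 0.11, 0.02, 0.09, 0.07, -0.19 and -0.41, and that of all genes lay between -0.03 and 0.00. Scaling moved this picture. With libraries scaled to total counts, the median of all genes was -0.12 at 1.5 h and between -0.35 and -0.18 from 3 h on. The members then split into 5 lower and 7 higher at 1.5 h (14.8% and 6.97% of all genes). At 3 h the split was 20 and 4 (35.5% and 13.4%), and the 6 h libraries gave 21 and 6 (42.1% and 18.3%). The later splits were 19 and 6 (37.6% and 23.7%), 22 and 4 (31.9% and 25.4%) and, for 72 h, 31 and 3 (33.7% and 26.9%). The excess of rises over falls at 3 h and 6 h was thus present with TMM scaling and not with total counts.

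Single libraries also moved the early counts. Shares of all genes with a library left out are not given, here or below. These counts are thus not shown to be particular to the members. Without the second 0 h library, members lower and higher were 0 and 2 (1.5 h), 3 and 9 (3 h), 10 and 12 (6 h), 8 and 12 (24 h), 18 and 6 (48 h), and 21 and 4 (72 h). Without the first 0 h library, 10 members were called at 0.5 h and 5 were lower at 1.5 h. The 10 higher at 1.5 h became 1 without 1.5 h replicate 2 and 5 or 6 without 1.5 h replicate 1, either 0.5 h library, either 6 h library or 48 h replicate 1. The 2 lower at 1.5 h became 0 without either 1.5 h library and 1 without any 1 of the libraries of 0.5, 6, 24 and 48 h. The 8 lower at 3 h became 3 without 3 h replicate 2, and the 11 higher became 5 without 3 h replicate 1. For 24 h, the 13 lower became 5 without replicate 1 and the 11 higher became 6 without replicate 2. The counts of 6, 48 and 72 h moved by less than 1.5 times without any single library.

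GC content ran with the early changes. Across the 39 members, whose transcripts hold between 38.0% and 65.2% G and C, the log2 fold change correlated with GC at r = -0.91 (0.5 h), -0.70 (1.5 h), -0.35 (6 h) and -0.38 (72 h). Genes are not independent replicates, and all these values share the 0 h libraries. With each library's GC trend removed, 1 member was lower and 14 higher at 1.5 h (6.64% and 11.3% of all genes), the 6 h split was 11 and 18 (30.2% and 30.9%), and that of 72 h was 28 and 4 (28.2% and 35.5%).

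**Figure D2:**
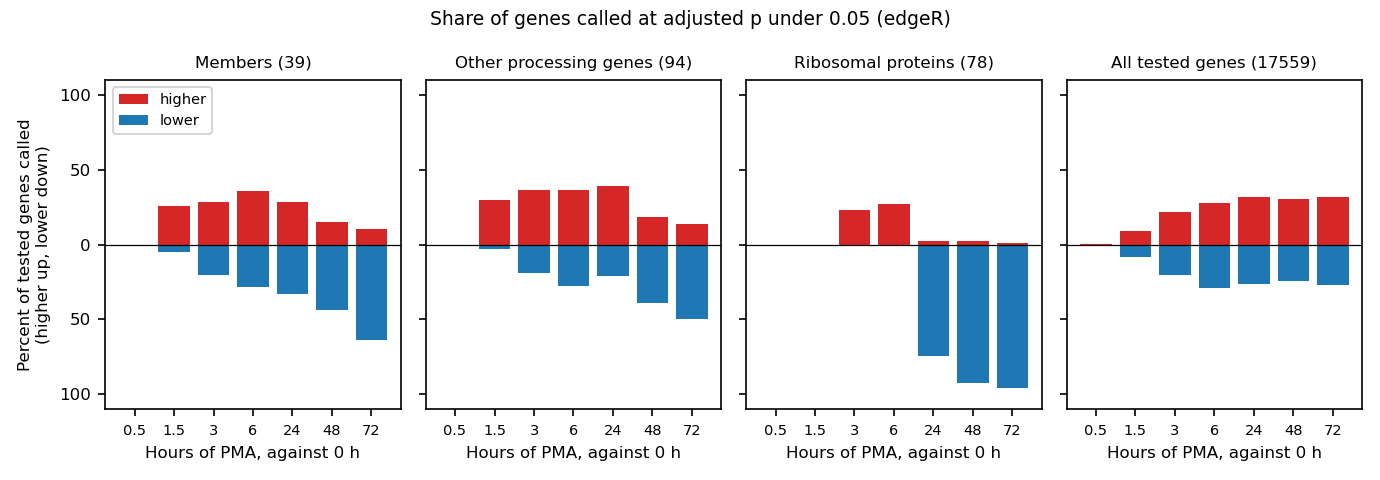
Percent of genes called higher (up) and lower (down) at each time against 0 h by edgeR, for the 39 members, 94 other processing genes, 78 ribosomal protein genes and all 17559 tested genes. With TMM scaling the ribosomal protein genes go from 26.9% higher at 6 h (turned with total counts) to 74.4% lower at 24 h, while the members reach 64.1% lower at 72 h.

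Falls also outnumbered rises late in the course where neither 0 h library was compared. From 6 h to 72 h, 27 of 39 members were lower and 1 was higher, with a median of -0.41 on the log2 scale, where 25.6% and 31.6% of all genes were lower and higher. Scaled to total counts, 18 were lower and 4 higher (16.3% and 38.9% of all genes). Between neighbouring times, the counts of members stood beside those of all genes: 26 members changed between 3 and 6 h (41.2% of all genes) and 22 of 39 between 6 and 24 h (56.6%, a share near that of the members). The step into 1.5 h had 2 (5.77%), and that from 48 to 72 h had 2 (1.47%). In the step from 1.5 to 3 h, in which MYC rose, 13 members changed (25.1%), 12 lower and 1 higher, where 12.1% of all genes were lower and 13.0% higher. The step between 24 and 48 h had 9 (15.0%), of which 8 were lower and 1 higher (6.12% and 8.88%). The 13 became 4 without 1.5 h replicate 2 and 8 without 1.5 h replicate 1, the 26 became 17 without 6 h replicate 1, and the 22 became 14 without 6 h replicate 2. The 9 became 2 or 3 without any 1 of the 4 libraries compared. The 2 members of the step into 1.5 h became 0 without any 1 library of 0.5, 1.5, 6, 24 or 48 h. Those of the last step became 0 without any 1 library of 0.5, 6 or 48 h or 72 h replicate 2, and 5 without any 1 library of 0 or 3 h.

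The roles are taken in turn below, and their counts stand against the 29.4% of all genes lower and 27.8% higher at 6 h, and 26.9% and 31.7% at 72 h. Scaling moved the 6 h counts in each role. With libraries scaled to total counts, the lower and higher genes of the 6 h libraries became 7 and 1 of 9 snoRNP genes, 5 and 3 of 12 small subunit genes, 4 and 1 of 10 large subunit genes and 4 and 1 of 6 RNA polymerase I genes. Without the second 0 h library, the small subunit genes higher at 6 h became 4, the large subunit genes lower at 72 h became 4, and the RNA polymerase I genes lower became 1 at either time.

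NPM1 and NCL, abundant nucleolar scaffold proteins that chaperone preribosomes and histones, rose in CPM before they fell. In order of time NPM1 stood at 1213, 1381, 1427, 1836, 1532, 893, 781 and 785 CPM in the replicate 1 libraries and 1053, 1440, 1569, 1730, 1590, 958, 793 and 638 CPM in the replicate 2 libraries. All libraries from 0.5 to 6 h lay above those of 0 h and all later ones below. It was higher by 0.65 on the log2 scale (SE 0.11, edgeR adjusted p = 0.00035) at 3 h and 0.46 (SE 0.11, adjusted p = 0.0028) at 6 h, and lower by -0.67 (SE 0.11, adjusted p = 0.00016) at 72 h. The value at 6 h was 0.09 and not called with libraries scaled to total counts, and -0.05 with counts derived from TPM. In the deposited TPM, NPM1 stood at 2246 and 2769 in the 0 h libraries and 2506 and 2234 in those of 3 h, which overlap. In TPM both 6 h libraries lay below both of 0 h. The annotation names 45 pseudogenes of NPM1, with which reads may be shared. NCL had 581, 676, 721, 719, 481, 421, 410 and 403 CPM in the replicate 1 libraries and 587, 683, 825, 725, 565, 494, 470 and 390 CPM in the replicate 2 libraries, with all libraries from 0.5 to 3 h above those of 0 h and all later ones below. It was higher at 1.5 h by 0.41 (SE 0.11, edgeR adjusted p = 0.026) and lower at 72 h by -0.56 (SE 0.11, adjusted p = 0.00072) on the log2 scale.

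**Figure D3:**
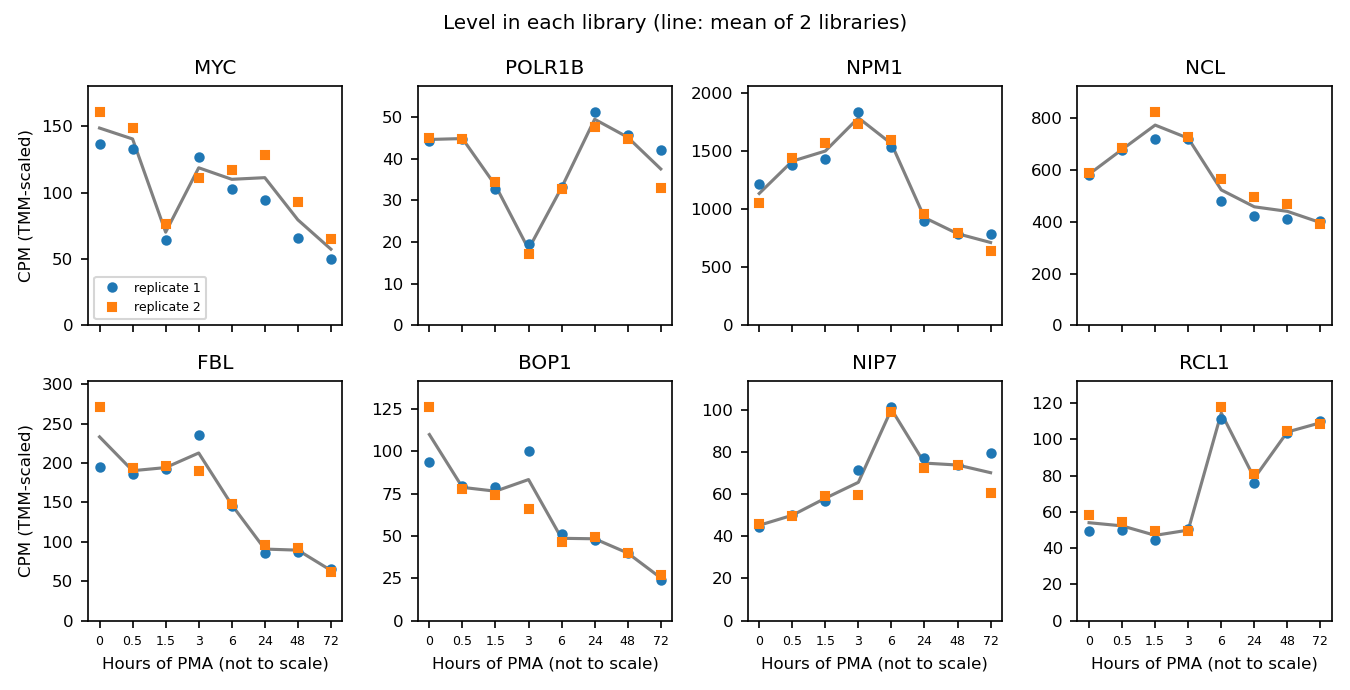
CPM in each library for MYC and 7 members over time (axis of hours not to scale); points are libraries and lines the mean of the 2. MYC dips at 1.5 h, POLR1B at 3 h, NPM1 peaks at 3 h, FBL and BOP1 end lowest, and NIP7 and RCL1 stand above both 0 h libraries from 6 h on.

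Among the 9 snoRNP genes tested, 4 were lower and 1 higher at 6 h, and 6 lower and 1 higher at 72 h. FBL (fibrillarin), the methyltransferase of the box C/D snoRNPs, had 195, 186, 192, 236, 146, 86.1, 87.0 and 65.9 CPM in the replicate 1 libraries and 271, 194, 196, 190, 148, 95.4, 91.9 and 61.5 CPM in the replicate 2 libraries. From 6 h on every library lay below both 0 h libraries. Its log2 fold change was -0.67 (SE 0.14, edgeR adjusted p = 0.00081) at 6 h, -1.36 (SE 0.14, adjusted p = 1.6e-06) at 24 h and -1.87 (SE 0.14, adjusted p = 6.6e-08) at 72 h.

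The box H/ACA snoRNPs, which convert uridine to pseudouridine, hold DKC1 (the pseudouridine synthase), NHP2, NOP10 and GAR1, and these did not move together. NHP2 was lower by -0.88 (SE 0.14, edgeR adjusted p = 0.0001) at 6 h and -1.29 (SE 0.14, adjusted p = 3.1e-06) at 72 h. DKC1, with 204 and 215 CPM at 0 h and 129 and 120 at 72 h, was lower from 3 h on, by -0.44 at 6 h and -0.75 at 72 h. NOP10 had 50.5 and 58.7 CPM at 0 h and 70.7 and 68.4 at 72 h, and was higher by 0.43 (SE 0.11, edgeR adjusted p = 0.0057) at 24 h and 0.35 (SE 0.12, adjusted p = 0.018) at 72 h. Scaled to total counts NOP10 was 0.18 and 0.19 at those times, not called. NOLC1, a chaperone of snoRNPs, was higher by 0.31 at 1.5 h and lower by -0.48 at 6 h and -0.89 at 72 h. RRP9 had 19.2 and 23.8 CPM at 0 h and 17.6 and 21.4 at 72 h, and its libraries of 0 h and 72 h overlap.

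The core box C/D proteins NOP56 and NOP58, named here after their values were seen, differed from FBL. NOP58 was higher by 0.62, 0.88 and 0.69 at 1.5, 3 and 6 h (SE 0.12 each, edgeR adjusted p at most 0.0034) and -0.13 at 72 h, not called. NOP56, like TAF1D and GAR1, had much of its reads outside protein-coding transcripts. For NOP56 the share of reads in protein-coding transcripts was 55.6% and 55.4% in the 0 h libraries, 71.0% and 71.3% at 6 h, then 76.0% and 74.0% at 72 h, so no library of 6 h or 72 h overlapped those of 0 h. Summed over all transcripts NOP56 was lower by -0.59 (SE 0.11, edgeR adjusted p = 0.00036) at 72 h. Over protein-coding transcripts alone it was -0.21 (SE 0.10, edgeR adjusted p = 0.095), and 0.49 (SE 0.10, adjusted p = 0.0013) at 6 h. How reads divide among transcripts is salmon's estimate.

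**Figure D4:**
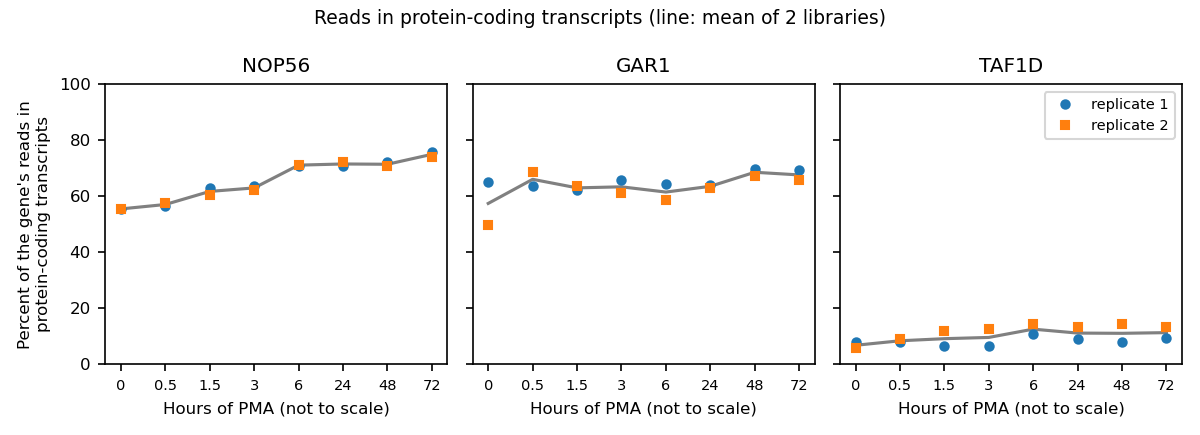
Percent of each gene's reads assigned to protein-coding transcripts in each library over time (axis of hours not to scale), for NOP56, GAR1 and TAF1D; lines are the mean of 2 libraries. NOP56 rises from 55.5% at 0 h to 75.0% at 72 h, and TAF1D stays at or below 14.3% in every library.

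Of the 12 small subunit genes, 3 were lower and 6 higher at 6 h, and 8 were lower and 1 higher at 72 h. NOB1, the nuclease that makes the last cut in 18S rRNA, had 90.5, 89.3, 91.9, 74.4, 42.0, 49.8, 42.4 and 36.8 CPM in the replicate 1 libraries and 107, 88.8, 94.6, 63.1, 40.7, 53.9, 47.2 and 34.0 CPM in the replicate 2 libraries. Both libraries of every time from 3 h on lay below both 0 h libraries. NOB1 was lower by -1.26 (SE 0.11, edgeR adjusted p = 2.2e-07) at 6 h and -1.48 (SE 0.11, adjusted p = 4.4e-08) at 72 h.

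NAT10, an RNA acetyltransferase that acts on 18S rRNA, fell, partly came back and fell again. Its replicate 1 libraries had 147, 152, 153, 130, 76.6, 117, 86.9 and 77.9 CPM in order, and its replicate 2 libraries 168, 148, 156, 124, 84.7, 131, 87.9 and 75.2 CPM. Both 24 h libraries lay above those of 6, 48 and 72 h and below those of 0 h. From 6 to 24 h it rose by 0.62 (SE 0.09, edgeR adjusted p = 6.1e-05), and from 24 to 48 h it fell by 0.51 on the log2 scale (SE 0.09, adjusted p = 0.0019). NOP14, a processome protein, was lower by -0.44 at 6 h and -0.50 at 72 h. LTV1, an export and assembly factor, was higher by 0.57 (SE 0.11, edgeR adjusted p = 0.0051) at 1.5 h. Its 0.04 at 6 h was not called, and was -0.33 with libraries scaled to total counts (edgeR adjusted p = 0.02). Its -0.30 at 72 h (adjusted p = 0.04) was not called without the first 0 h library (-0.16).

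RCL1, a processome protein needed for early cleavage of the precursor, was the member with the largest rise at 72 h in this role. The replicate 1 libraries had 49.6, 49.9, 44.4, 50.5, 111, 76.1, 103 and 110 CPM and the replicate 2 libraries 58.4, 54.6, 49.6, 49.3, 118, 81.0, 105 and 108 CPM. Every library from 6 h on lay above every earlier one. Its log2 fold change was 1.08 (SE 0.10, edgeR adjusted p = 3.2e-07) at 6 h and 1.02 (SE 0.10, adjusted p = 6.3e-07) at 72 h, and 0.72 and 0.86 with libraries scaled to total counts, both called. UTP20, UTP15 and RRP12, other processome and export factors named after their values were seen, rose at 6 h and 24 h and were not called at 72 h. The rise of UTP15 at 6 h was not called with libraries scaled to total counts or without the second 0 h library. UTP20 had 60.4, 64.8, 66.6, 77.8, 108, 106, 71.3 and 59.8 CPM in the replicate 1 libraries and 54.0, 64.7, 69.1, 72.4, 109, 103, 72.1 and 50.1 CPM in the replicate 2 libraries. Its 6 h and 24 h libraries do not overlap those of 0 h, whereas those of 72 h overlap them (log2 fold change -0.06, SE 0.09, not called).

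Of the 10 large subunit genes, 2 were lower and 4 higher at 6 h, and 7 lower and 1 higher at 72 h. BOP1 and WDR12 are partners, with PES1, in the PeBoW complex that is needed to make 28S and 5.8S rRNA, and their courses differed. BOP1 had 93.6, 79.5, 78.7, 100, 50.9, 47.3, 39.9 and 23.7 CPM in the replicate 1 libraries and 126, 77.9, 74.2, 66.2, 46.3, 49.3, 40.0 and 26.7 CPM in the replicate 2 libraries. From 6 h on all its libraries lay below both of 0 h. Its log2 fold change was -1.18 (SE 0.17, edgeR adjusted p = 3.6e-05) at 6 h and -2.12 (SE 0.17, adjusted p = 1.6e-07) at 72 h, or -0.63 and -1.72 with the GC trend removed, both called. Its early call, -0.52 at 1.5 h (adjusted p = 0.045), became -0.07 with the GC trend removed and -0.30 without the second 0 h library, neither called.

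WDR12 had a narrow dip. Its replicate 1 libraries had 102, 112, 102, 96.6, 46.1, 87.7, 69.1 and 63.6 CPM, and its replicate 2 libraries 94.9, 114, 111, 97.0, 45.2, 89.4, 69.0 and 55.0 CPM, with those of 6 h the lowest. It was lower by -1.11 (SE 0.09, edgeR adjusted p = 9.9e-08) at 6 h and rose from 6 to 24 h by 0.96 (SE 0.09, adjusted p = 7.7e-07). It was the 1 member higher at 72 h than at 6 h, by 0.38 (adjusted p = 0.0021), and over protein-coding transcripts alone that value was 0.22, not called. PES1 was -0.17 at 6 h, not called, and lower by -0.29 (edgeR adjusted p = 0.019) at 72 h.

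NIP7, a 60S assembly factor, rose and stayed up, with 44.4, 50.1, 56.8, 71.5, 101, 77.1, 74.0 and 79.7 CPM in the replicate 1 libraries and 46.0, 49.8, 59.3, 59.7, 99.1, 72.4, 73.6 and 60.7 CPM in the replicate 2 libraries. Every later library lay above both of 0 h. NIP7 was higher by 1.15 (SE 0.12, edgeR adjusted p = 1.5e-06) at 6 h and 0.63 (SE 0.12, adjusted p = 0.00037) at 72 h. NIP7 and NOB1 lie close together on chromosome 16 (69337996-69343111 and 69741867-69754940, GRCh38), and moved in opposite directions. RRS1, which brings the 5S particle to the subunit, dipped at 3 h by -0.72 (SE 0.12, edgeR adjusted p = 0.00027) from 17.8 and 19.8 CPM to 11.8 and 11.1, and was -0.09 at 6 h. MRTO4, a factor related to a stalk protein, was higher by 0.32 (edgeR adjusted p = 0.0066) at 6 h, but -0.04 with libraries scaled to total counts.

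Of the 6 RNA polymerase I genes, 2 were lower and 2 higher at 6 h, and 2 lower and 1 higher at 72 h. POLR1B, the second largest subunit, had a sharp early dip, with 44.3, 44.8, 32.8, 19.5, 33.2, 51.3, 45.6 and 42.0 CPM in the replicate 1 libraries and 44.9, 44.8, 34.3, 17.1, 32.8, 47.6, 44.6 and 33.0 CPM in the replicate 2 libraries. The 3 h libraries were the lowest of the 16. Its log2 fold change was -0.41 (SE 0.11, edgeR adjusted p = 0.021) at 1.5 h and -1.28 (SE 0.11, adjusted p = 7e-07) at 3 h, with a rise of 0.85 (adjusted p = 3.4e-05) from 3 to 6 h. Over protein-coding transcripts alone, 3 h was -0.95 and called, whereas 1.5 h (-0.38) and 6 h (-0.02) were not. The call at 1.5 h was also lost without the second 0 h library (-0.40).

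POLR1E, the subunit that pairs with POLR1G, fell late, by -0.32 (edgeR adjusted p = 0.021) at 6 h and -1.07 (SE 0.11, adjusted p = 1.7e-06) at 72 h, from 62.9 and 67.1 CPM at 0 h to 34.0 and 28.1. UBTF, the factor that binds ribosomal DNA and opens it for polymerase I, had 103 and 117 CPM in the 0 h libraries, 128 and 141 in those of 6 h, and 140 and 145 in those of 72 h. It was higher by 0.29 (edgeR adjusted p = 0.022) at 6 h and 0.37 (SE 0.10, adjusted p = 0.0054) at 72 h; the 6 h value was -0.07 with libraries scaled to total counts, and the 72 h value was 0.22 and called. POLR1A, the largest subunit, had changes of -0.04 at 6 h and -0.18 at 72 h, neither called. TAF1D, a subunit of the selectivity factor, was higher by 1.06 (SE 0.15, edgeR adjusted p = 4.4e-05) at 6 h. Only 10.1% of its reads lay in protein-coding transcripts and 53.9% in transcripts that hold a small RNA gene, and over protein-coding transcripts alone the 6 h value was 1.92 (SE 0.44, edgeR adjusted p = 0.0022).

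At 1.5 h every member stood higher relative to MYC than it had at 0 h. The log2 change of a member minus that of MYC in the same library, which does not depend on scaling between libraries, was above 0 and called in 39 of 39 members (limma, adjusted p under 0.05), with a median of 1.19 and a range of 0.57 to 1.70. The same was called for 79.3% of all genes, and 0.0570% were lower. Every such value shares the error of MYC. At 3 h, 10 members were higher relative to MYC and 1, POLR1B (-0.96, limma adjusted p = 0.0097), was lower, against 21.0% and 4.94% of all genes. At 6 h 16 were higher (34.0% of all genes) and 3 lower (12.7%), namely NOB1, BOP1 and WDR12, and at 24 h 16 were higher (37.0%) and 2 lower (8.20%), namely FBL and BOP1. At 48 h 24 were higher (59.3%) and 0 lower (3.24%). The shares of members higher, 41.0% at 24 h and 61.5% at 48 h, lay near those of all genes.

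At 72 h, 31 of 39 members (79.5%) were higher relative to MYC, near the 78.2% of all genes. The 1 member lower was BOP1 (-0.73, SE 0.24, limma adjusted p = 0.01), against 1.95% of all genes. RCL1 stood highest, at 2.40 (SE 0.22, limma adjusted p = 8.8e-09), followed by NIP7 at 2.00. FBL, NHP2, NAT10 and NOB1 had differences of -0.47, 0.11, 0.34 and -0.09 from MYC at 72 h, none called. Without the second 0 h library, the members higher relative to MYC were 37, 2, 7, 7, 18 and 26 from 1.5 h to 72 h in order, in place of 39, 10, 16, 16, 24 and 31. With the replicate number as a block, 18 at 3 h and 25 at 6 h were higher. Shares of all genes without that library or with the block are not given, so these counts are not shown to be particular to the members. The 10 of 3 h also became 3 without 3 h replicate 1 and 2 without 3 h replicate 2. The 16 of 6 h became 7 without 6 h replicate 1, the 16 of 24 h became 6 without 24 h replicate 1, and the 24 of 48 h became 14 without 48 h replicate 1.

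**Figure D5:**
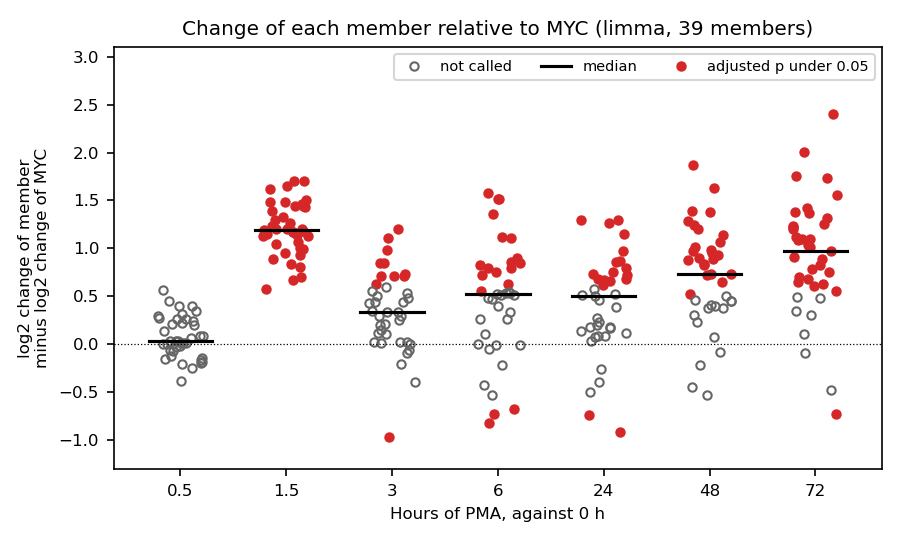
Log2 change of each of 39 members against 0 h minus that of MYC at 7 times (limma); filled points have an adjusted p under 0.05 and bars are medians. All 39 points lie above 0 at 1.5 h, with a median of 1.19, where 79.3% of all genes are called higher. At 72 h 31 (79.5%) are called higher, near the 78.2% of all genes.

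In timing, members and MYC were compared by when each was lowest and when each was first called lower. The mean level was lowest at 72 h in 26 of 39 members and in MYC. The first fall that was called came at 1.5 h in MYC and in 2 members, BOP1 and POLR1B. For the 5 later times, in order, it came in 7, 6, 3, 3 and 5 members, and 13 were never called lower. These times moved with the processing, while MYC was first called at 1.5 h under each of the 3 settings named next. With total counts, 5 members were first called at 1.5 h and 15 at 3 h, and 4 never were. Without the second 0 h library, no member was called at 1.5 h, 3 were first called at 3 h, and 15 never were. With the GC trend removed, the member first called at 1.5 h was POLR1B, and 6 followed at 3 h. Over the 8 time point means, the correlation of a member with MYC had a median r of 0.34 and ran from -0.44 (RCL1) to 0.73 (BOP1), with 32 members above 0 and 7 below, and a median rho of 0.24. These are descriptions over 8 points that share their libraries and scaling. The timing was not computed for all tested genes, so whether it is particular to the members is not known. BOP1 and NHP2 (r = 0.71) had the highest r. Yet both stood higher relative to MYC at 1.5 h (0.57 and 0.70, limma adjusted p under 0.05). BOP1 stood lower relative to MYC at 6, 24 and 72 h.

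From their calls at 6 h and 72 h with TMM scaling, the members sorted into courses. The share of all tested genes in each course was not computed, so no course is shown to be particular to the members. Lower at both times were BOP1, DKC1, FBL, NAT10, NHP2, NOB1, NOLC1, NOP14, POLR1E and WDR12. Higher at 6 h and lower at 72 h were NOP16, NOP2, NPM1, UTP4 and WDR43, and higher at 6 h and not called at 72 h were MRTO4, NOP58, RRP12, TAF1D, UTP15 and UTP20. Lower only at 72 h were BYSL, GAR1, LTV1, NCL, NOP56, PES1, POLR1C, PPAN, RRS1 and WDR75. NIP7, RCL1 and UBTF were higher at both times and NOP10 at 72 h only, while POLR1B was lower at 6 h only, and GNL3, POLR1A and RRP9 were called at neither. With total counts 17 of 39 members kept their course, without the second 0 h library 32 did, and with the GC trend removed 30 did. The 10 lower at both times became 20 with total counts, and the 5 higher and then lower became 2 other genes, NOP58 and UTP20.

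Members with and without the promoter motif are set side by side, with no test. Of the 16 members with CACGTG, 3 were lower and 6 higher at 6 h, and 10 lower and 2 higher at 72 h. Of the 17 without it, 5 were lower and 6 higher at 6 h, and 11 lower and 2 higher at 72 h. All genes tested had 29.4% lower and 27.8% higher at 6 h, and 26.9% and 31.7% at 72 h. With total counts the 6 h direction turned in each group, to 8 lower and 2 higher with the motif and 9 and 2 without it. NAT10 and FBL, lower at both times, RCL1, higher at both, NOP2 and UTP20, higher at 6 h, and NOP10, higher at 72 h, all hold it in the sequences shown above.

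Other genes of the pathway were counted by lists. Of 94 other processing genes tested, 26 were lower and 34 higher at 6 h, and 47 lower and 13 higher at 72 h, with a median of -0.34. Of 78 ribosomal protein genes, 1 was lower and 21 higher at 6 h, 58 lower and 2 higher at 24 h, and 75 lower and 1 higher at 72 h, with a median of -0.98. Scaled to total counts, the 6 h counts were 50 lower and 13 higher for the other processing genes and 26 lower and 3 higher for the ribosomal protein genes, so their direction at 6 h turned with the scaling, whereas 63 and 7, and 75 and 1, were lower and higher at 72 h. Without the second 0 h library, 19 other processing genes were lower and 28 higher at 6 h. With total counts, 42.1% of all genes were lower and 18.3% higher at 6 h, and 33.7% and 26.9% at 72 h. Whether these lists differ from the members was not tested. Of 9 other polymerase I genes 4 were lower and 2 higher at 72 h, and of 21 RNA polymerase III genes 7 were lower and 3 higher. The 27.7% of other processing genes lower at 6 h and the 33.3% of polymerase III genes lower at 72 h lay near the shares of all genes. In the MYC network MAX, the partner of MYC, was lower by -0.48 at 3 h and -0.46 at 6 h (SE 0.09 each, edgeR adjusted p at most 0.00086) and 0.02 at 72 h, and MXD1, which competes with MYC for MAX, was higher by 0.94 (SE 0.10, edgeR adjusted p = 4.3e-05) at 1.5 h and 0.95 at 6 h. MXI1, of the same family, was lower by -3.69 (SE 0.27, edgeR adjusted p = 5e-08) at 6 h and -1.41 at 72 h. MYCL, another gene of the network, was lower by -2.22 at 3 h and -2.87 at 6 h (SE 0.12 each, edgeR adjusted p at most 5.5e-09). It was also called lower at 1.5, 24, 48 and 72 h. At 6 h MXD3 was lower by -1.57, and MNT and MGA were higher by 0.63 and 0.61, all called. Of the 10 network genes tested, 5 were lower and 3 higher at 6 h, against 29.4% and 27.8% of all genes. At 72 h, 3 were lower and 2 higher (26.9% and 31.7% of all genes).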

How the data were processed

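The deposited tables hold, per the file headers, salmon's estimated counts of reads and TPM for 177456 transcripts in each of 16 libraries. The effective length column, also deposited per the file headers, was used for fragment length. Per the submitters' processing notes, Trim Galore 0.4.3 and Salmon were used, and hg19 and hg38 are both named; which build made the tables, and use of strand in counting, are not given in the sources used here, so antisense overlaps cannot be told apart. Libraries were ribosomal RNA depleted (KAPA kit), per the labels' protocols.

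Transcripts were matched to GENCODE 29 by identifier (94.1%; unmatched transcripts held 3.01% to 3.75% of reads), summed per gene and rounded. Counts were fitted with edgeR 4.0.16 in R 4.3.3 (TMM, 0.854 to 1.139; filterByExpr; quasi-likelihood; all 16 libraries; common coefficient of variation 0.123). Differences from MYC used limma 3.58.1 on log2 CPM with a prior count of 2. The threshold was an adjusted p of 0.05. Alternatives were DESeq2 1.42.0, other scalings and filters, counts from the deposited TPM, protein-coding transcripts alone, removal of each library's GC trend, a replicate block and each library left out. Standard errors are the fold change over the square root of F. Both tests were checked on simulated data. In the edgeR check, 78% of 2-fold and 100% of 4-fold changes were recovered, with 9 false calls among 187. Smaller changes and GC trends were not simulated, so the check does not cover them.

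The members and lists were chosen with earlier results of these data known. Genes described in full are MYC, NCL, NPM1 and, per role, the most abundant member, the 2 largest falls and the smallest change at 6 h, the largest change at 72 h, and members called against their role's median; others were named after their values were seen. A count of 3 reads equals 0.0555 to 0.110 CPM, counting error only. Some marker genes are not reported here.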

Additional observations from a re-analysis of the deposited data

How the results depend on the processing

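The labels do not say that replicate numbers pair the libraries, and they were not taken to do so, since not every pair's correlation was over 0.1: deviations of same-numbered libraries from their time point's mean correlated at -0.30 to 0.60 (median 0.27) over 28 pairs of times, 9983 genes. MYC was higher in the replicate 2 library at 7 of 8 times. With the replicate number as a block, members lower and higher were 2 and 11 (1.5 h), 9 and 11 (3 h), 11 and 14 (6 h), 13 and 11 (24 h), 17 and 6 (48 h) and 26 and 4 (72 h). The last step had 4 in place of 2 calls, and the members higher relative to MYC became 18 at 3 h and 25 at 6 h.

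Values that moved by over 1.5 times were these. At 0.5 h, 3 members were called with no filter on low counts. At 1.5 h, the members lower were 1 with DESeq2 size factors, 5 with total counts, 1 with counts from TPM, 1 with protein-coding transcripts, 1 with the GC trend removed and 0 at an adjusted p under 0.01; those higher were 16 with the GC trend removed and the replicate block, and 3 at 0.01. At 3 h, the members lower were 5 with size factors, 20 with total counts and 3 at 0.01; those higher were 4 with total counts, 6 with counts from TPM and 7 at 0.01. At 6 h, total counts gave 21 lower and 6 higher, and counts from TPM 8 higher. At 24 h, 8 were lower at 0.01 and 6 higher with total counts. The step into 1.5 h gave 1 call with size factors, 1 with total counts, 1 with at least 10 counts in every library, 0 with protein-coding transcripts, 12 with the GC trend removed, 14 with the block added and 0 at 0.01. From 1.5 to 3 h there were 20 calls with total counts, 20 with the GC trend removed and the block, and 7 at 0.01. From 24 to 48 h there were 5 with counts from TPM and 3 at 0.01. From 48 to 72 h there were 5 with total counts, 6 with DESeq2, 6 with no filter, 0 with counts from TPM, 11 with the GC trend removed, 17 with the block added and 0 at 0.01.

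Leaving out 1 library at a time gave these ranges. At 0.5 h, 0 to 10 were called. Members lower and higher ranged over 0 to 5 and 1 to 13 (1.5 h), 3 to 11 and 5 to 12 (3 h), 10 to 11 and 11 to 14 (6 h), 5 to 13 and 6 to 12 (24 h), 14 to 18 and 5 to 8 (48 h), and 21 to 25 and 3 to 5 (72 h). The 6 steps in order ranged over 0 to 2, 4 to 13, 17 to 27, 14 to 23, 2 to 11 and 0 to 5, and members lower from 6 to 72 h over 20 to 27. Members changed over the course numbered 37 to 39. Those higher relative to MYC ranged over 0 to 0 (0.5 h), 35 to 39, 2 to 10, 7 to 18, 6 to 17, 14 to 30 and 23 to 34. The median r with MYC of 0.34 was 0.42 with total counts, 0.44 in the replicate 1 libraries and 0.30 in the replicate 2 libraries, and the 26 members lowest at 72 h were 23, 22 and 27.

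Log2 fold changes that reversed with total counts were, at 3 h, NOP10 (-0.27), MRTO4 (-0.052) and POLR1E (-0.27), and at 6 h, NOP10 (-0.28), LTV1 (-0.33), MRTO4 (-0.044) and UBTF (-0.072). With counts from TPM, NPM1 at 6 h reversed (-0.051). The causes were not tested. Of 4536 values of single genes under the alternatives, 231 lost a call, 131 gained one and 8 reversed, and 107 others changed sign where neither value was called. The single genes were first recomputed for 3 comparisons, widened to 7 after those were seen. These genes had 339 reads or more per library.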
